A study of Mus musculus with 2 samples.

Results

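Cells that held transcripts of Pax7 and Myog at once, without much sarcomere transcript, were examined in a pair of libraries from mouse fibroblasts reprogrammed into induced myogenic progenitors. The cells were selected on their own counts: at least 1000 genes detected, at most 15% mitochondrial UMIs (unique molecular identifiers, each standing for 1 captured transcript), at least 2 Pax7 UMIs, at least 2 Myog UMIs per 10000, and under 1% of UMIs from Acta1, Actc1, Myh3, Mylpf and Myl1 together. This left 732 of 13100 cells kept by the first 2 criteria, or 5.59%, out of 15861 deposited barcodes. The WT library held 425 such cells of 7318 (5.81%, exact 95% Clopper-Pearson interval 5.28 to 6.37%) and the KO library 307 of 5782 (5.31%, 4.75 to 5.92%). The libraries were droplet-based 3′ single-cell RNA-seq of 1 MyoD-WT and 1 MyoD-KO clone, both at passage 4 and both given the strain label Myod1tm1Jae. Both clones were derived from mouse embryonic fibroblasts by Myf6 overexpression together with forskolin, RepSox and CHIR99021, were picked as colonies that no longer depended on Myf6, and were kept in medium with the same 3 compounds and bFGF. Each genotype is 1 clone and 1 library, so a difference between WT and KO cannot be told apart from a difference between clones or libraries, and no p-value is given; all intervals cover counting error only. The label of these cells as a transition stage names Dll1 and Hes6 as further markers, and both were higher in them than in Pax7-only cells of the same library. Hes6 was higher still in Myog-only cells of both libraries. Dll1 was within counting error of the Myog-only level in WT and below it in KO. The cells were chosen on Pax7 and Myog with earlier results of these data known, so these levels are no test of the label.

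Pax7 is the paired-box transcription factor that marks muscle stem cells and proliferating progenitors, and Myog (myogenin) is the basic helix-loop-helix factor that switches on as myoblasts differentiate. Notch signalling keeps muscle progenitors undifferentiated: a ligand such as Dll1 on one cell activates Notch receptors on its neighbour, and the receptor's target genes of the Hes and Hey families repress differentiation there. MyoD and myogenin bind paired with E proteins to the E-box, CANNTG, and Hes6 is a Hes relative that is known to promote differentiation rather than block it. Cells leaving the Pax7 state normally leave the cell cycle, and later make the fusion proteins and the sarcomere.

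Promoter windows of Myog and of the marker genes Dll1 and Hes6 are shown because these transcripts were higher than in Pax7-only cells, and because MyoD-family factors read E-boxes. Each window runs from 250 bases before to 50 after a RefSeq start (300 bases, build GRCm38.p6 of the RefSeq table, whereas the counts used GRCm39), and where RefSeq lists several starts the one nearest the main GENCODE start is given. Capitals mark CANNTG, a palindrome that reads alike on both strands. The Myog window lies at chr1:134289754-134290053 on the plus strand, the Dll1 window at chr17:15375774-15376073 on the minus strand, and the Hes6 window at chr1:91413173-91413472 on the minus strand.
Myog: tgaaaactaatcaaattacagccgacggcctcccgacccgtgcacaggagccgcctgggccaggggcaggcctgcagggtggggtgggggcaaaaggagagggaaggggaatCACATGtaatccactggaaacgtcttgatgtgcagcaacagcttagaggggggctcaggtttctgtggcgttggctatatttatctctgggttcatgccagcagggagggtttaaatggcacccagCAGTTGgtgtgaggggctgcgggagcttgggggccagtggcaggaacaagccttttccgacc
Dll1: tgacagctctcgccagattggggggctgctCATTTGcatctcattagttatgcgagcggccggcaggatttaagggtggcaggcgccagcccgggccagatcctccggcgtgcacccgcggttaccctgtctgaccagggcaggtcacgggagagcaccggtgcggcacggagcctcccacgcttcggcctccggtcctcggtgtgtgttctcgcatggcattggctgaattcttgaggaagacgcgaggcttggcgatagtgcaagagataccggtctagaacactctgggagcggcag
Hes6: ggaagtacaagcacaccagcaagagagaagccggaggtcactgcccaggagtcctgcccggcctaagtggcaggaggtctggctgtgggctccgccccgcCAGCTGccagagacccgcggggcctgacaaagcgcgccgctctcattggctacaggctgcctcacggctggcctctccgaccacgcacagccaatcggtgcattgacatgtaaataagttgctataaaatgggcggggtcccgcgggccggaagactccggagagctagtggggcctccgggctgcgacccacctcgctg
The Myog window held 2 E-boxes, the Dll1 window 1 and the Hes6 window 1, of the form CAGCTG. A second RefSeq start of Dll1 and of Hes6, each not printed, had 3 in its window, and the Pax7 window, also not printed, had 0. The E-box stood in 72.3% of the 32851 promoter windows in the table and the form found at Hes6 in 16.3%, so these matches are a description of the letters and not evidence of binding.

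The double-positive cells were set against 2 gates of the same library, both under the same 1% limit on the 5 sarcomere genes. Pax7-only cells had at least 2 Pax7 UMIs and at most 1 Myog UMI (3589 in WT, 2406 in KO), and Myog-only cells had no Pax7 UMI and at least 2 Myog UMIs per 10000 (448 in WT, 436 in KO). The median double-positive cell held 4 Pax7 UMIs in both libraries, against 5 and 7 in Pax7-only cells of WT and KO. Its median Myog level was 4.28 UMIs per 10000 in WT and 4.92 in KO, against 10.1 and 13.8 in Myog-only cells. Just inside the Pax7 limit, 114 WT and 98 KO cells had exactly 2 Pax7 UMIs, and just outside it 173 and 122 cells had 1. Just inside the Myog limit, 69 WT and 48 KO cells lay between 2 and 2.5 UMIs per 10000, and just outside it 75 and 61 lay between 1.5 and 2. A further 144 WT and 108 KO cells had both genes but 1% or more of sarcomere transcripts, and their median depth was 64176.5 and 78421 UMIs.

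Depth moved with the gate. Double-positive cells had a median of 44078 UMIs in WT and 46090 in KO, which is 1.24 and 1.19 times the Pax7-only medians of 35689 and 38605.5, while Myog-only cells had 31932 and 40966. In WT 12.9% of double-positive cells exceeded 2 times the Pax7-only median and in KO 11.7%, against 1.59% and 2.08% of the Pax7-only cells. A droplet with 1 cell of each kind would pass the double gate. Scrublet, a doublet caller, called 2 cells in WT and 0 in KO and so did not work as a caller, but among the 6% of cells with its highest scores were 27.5% (23.3 to 32.0%) of WT double-positive cells and 13.4% (9.76 to 17.7%) of KO ones. In Pax7-only cells these shares were 2.01% and 3.37%, and in Myog-only cells 1.34% and 1.83%. Cells with at least 10000 UMIs were split into 5 equal depth classes. In WT 2.10% of the cells of the shallowest class and 12.4% of those of the deepest were double-positive, and in KO 2.92% and 8.30%. With each cell thinned to 10000 UMIs and the Pax7 limit lowered to 1 UMI, 3.01% and 7.34% of the cells of these classes were double-positive in WT and 4.84% and 5.84% in KO. Results are therefore given also without the highest-scoring cells (308 WT and 266 KO cells left) and within the shallower cells of all 3 gates, at or under the Pax7-only median (120 and 84 double-positive cells left). How many of the 732 are doublets was not tested. The libraries shared 14 barcodes, of which 2 were double-positive in KO and 0 in WT.

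**Figure D1:**
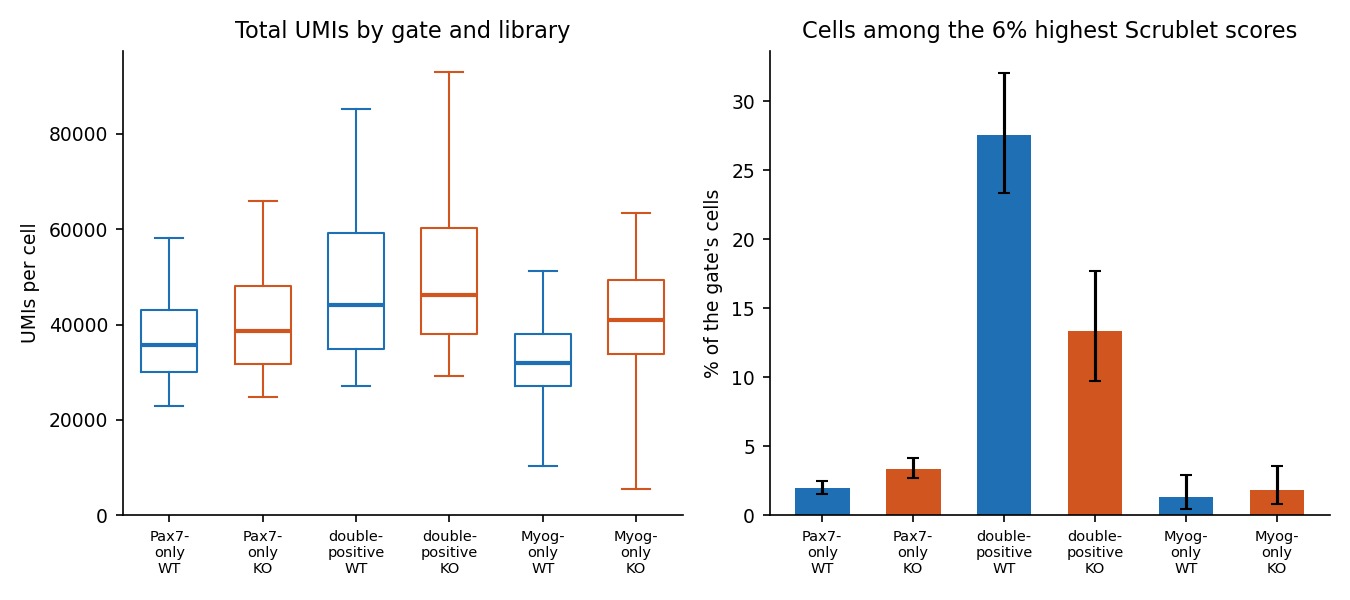
Left, UMIs per cell in the 3 gates of each library (box, quartiles and median; whiskers, 5th and 95th percentile); right, percent of each gate's cells among the 6% highest Scrublet scores, with exact 95% intervals. Double-positive cells are the deepest gate in both libraries (medians 44078 and 46090 UMIs) and hold 27.5% and 13.4% high-scoring cells.

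Markers of other cell types were measured in the same gates. The summed level of 7 endothelial markers was 1.41 CPM (counts per 1000000 UMIs) in WT and 1.31 in KO with 4 of 7 at 0 in each, including Kdr and Cldn5, and of 8 blood markers 3.40 and 2.13 CPM with Ptprc, the leukocyte surface marker, at 0 in both. The 14 fibroblast markers summed to 66.9 CPM in WT and 389 in KO double-positive cells, which lay between Pax7-only (129 and 824) and Myog-only cells (16.0 and 168), and Lum and Dpt were at 0 in both. The 10 smooth muscle markers summed to 1045 CPM in WT and 370 in KO, above Pax7-only (846 and 197) and below Myog-only cells (1421 and 718), with Rgs5 at 0 in WT; most of this was Acta2, which early muscle also makes, at 790 and 282 CPM. The 11 neural markers summed to 49.4 CPM in WT (Pax7-only 73.4, Myog-only 24.4) and 145 in KO (139 and 91.5), with Sox2 and Sox10 among those at 0 in both. The part of these markers in the results was not tested. In a KO reference, cells with at least 2 UMIs each of Dcn and Crabp1, 0 of 143 cells were double-positive. These cells were not free of muscle transcript: Myog was at 60.8 CPM, against 9.66 in KO Pax7-only cells. Unthinned, 35.7% of them had a Pax7 UMI and 50.3% a Myog UMI. In WT 1 of 6 such cells was double-positive, at a median depth of 159566 UMIs.

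Levels below are CPM of the summed UMIs of a gate, and a gene is called where 2 gates differed at least 2-fold, in the same direction in both libraries, with at least 10 CPM in the higher one. Against Pax7-only cells 176 of 7577 genes were higher in double-positive cells (2.32%) and 82 lower (1.08%). Against Myog-only cells 272 of 7390 were higher (3.68%) and 86 lower (1.16%); after scaling by edgeR's TMM factors these became 214 and 120. Since the cells were chosen on Pax7 and Myog, these contrasts are the ones the selection used, and the values are descriptive.

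Among the Notch genes, the ligand Dll1 was higher in double-positive than in Pax7-only cells of both libraries, and in WT did not differ from the Myog-only level beyond counting error. In WT Dll1 measured 22.6 CPM in Pax7-only, 52.7 in double-positive and 51.8 in Myog-only cells, and in KO 7.10, 58.3 and 70.7. The excess over Pax7-only cells was 2.33-fold in WT (2.17 to 2.496) and 8.21-fold in KO (7.43 to 9.06), and the ratio to Myog-only cells was 1.02 (0.927 to 1.12) and 0.824 (0.757 to 0.898). In cells thinned to 5000 UMIs, 24.8% of WT and 21.8% of KO double-positive cells had a Dll1 UMI, against 10.4% and 3.24% of Pax7-only cells and 1.40% of the Dcn and Crabp1 reference. Unthinned the double-positive shares were 87.5% and 87.9%. Of the 5 ligands and receptors with enough counts Dll1 was the only one called. Among the shallower cells the Dll1 excess was 2.56-fold in WT and 7.31-fold in KO.

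No ligand or receptor was called lower than in Pax7-only cells. Notch3, a receptor of muscle progenitors, measured 124, 43.2 and 4.47 CPM in Pax7-only, double-positive and Myog-only cells of WT, and 214, 117 and 16.7 in KO. It was 2.87-fold and 1.83-fold lower than in Pax7-only cells, so that only the WT difference reached 2-fold, and 9.65- and 7.04-fold higher than in Myog-only cells. Hey1, a direct Notch target and repressor, measured 79.5, 25.6 and 3.17 CPM in WT and 34.9, 10.8 and 11.1 in KO. Hey1 was 3.11- and 3.24-fold lower than in Pax7-only cells, and in KO it no longer differed from the Myog-only level beyond counting error (ratio 0.970, 0.786 to 1.20). Hes1, another target, went from 49.0 to 22.0 to 6.06 CPM in WT and from 89.6 to 32.3 to 5.99 in KO. Heyl, a target typical of satellite cells, read 21.2, 9.85 and 0.757 CPM in WT and 104, 62.6 and 6.999 in KO, short of 2-fold in KO. Among shallower cells Heyl was at 101 CPM in KO double-positive against 112 in Pax7-only cells, and at 10.2 against 22.7 in WT. Notch1, another receptor, was not lower at the lowest Myog levels of the gate, with 88.5 CPM in WT against 64.3 in Pax7-only cells, and 161 against 130 in KO. It did not rise steadily further within the gate: middle and highest Myog levels had 86.2 and 79.6 CPM in WT and 153 and 164 in KO. Myog-only cells had 75.2 and 97.6 CPM of Notch1 in WT and KO.

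Hes6 was higher than in Pax7-only cells in both libraries but below Myog-only cells. Hes6 measured 21.2, 97.5 and 172 CPM in WT and 90.6, 258 and 376 in KO, which put double-positive cells 4.60-fold (4.34 to 4.87) and 2.85-fold (2.75 to 2.96) above Pax7-only cells. Of the 4 genes tested from a list of Notch targets that also held Hes6, 1 was higher, Hes6 itself, and 2 lower, Hes1 and Hey1. Of 14 genes that modify Notch signalling, Neurl1a, a ligand-directed ubiquitin ligase, was higher (7.62 to 20.4 CPM in WT, 5.92 to 25.5 in KO), while Psen2, a subunit of γ-secretase, and Maml2, a coactivator of the receptor's transcription complex, were lower. Psen2 was at 109 CPM in Pax7-only and 42.3 in double-positive cells of WT, and at 60.6 and 23.6 in KO. Among shallower cells Neurl1a was under 2-fold in WT (log2 0.68) and Psen2 in KO (log2 -0.87).

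**Figure D2:**
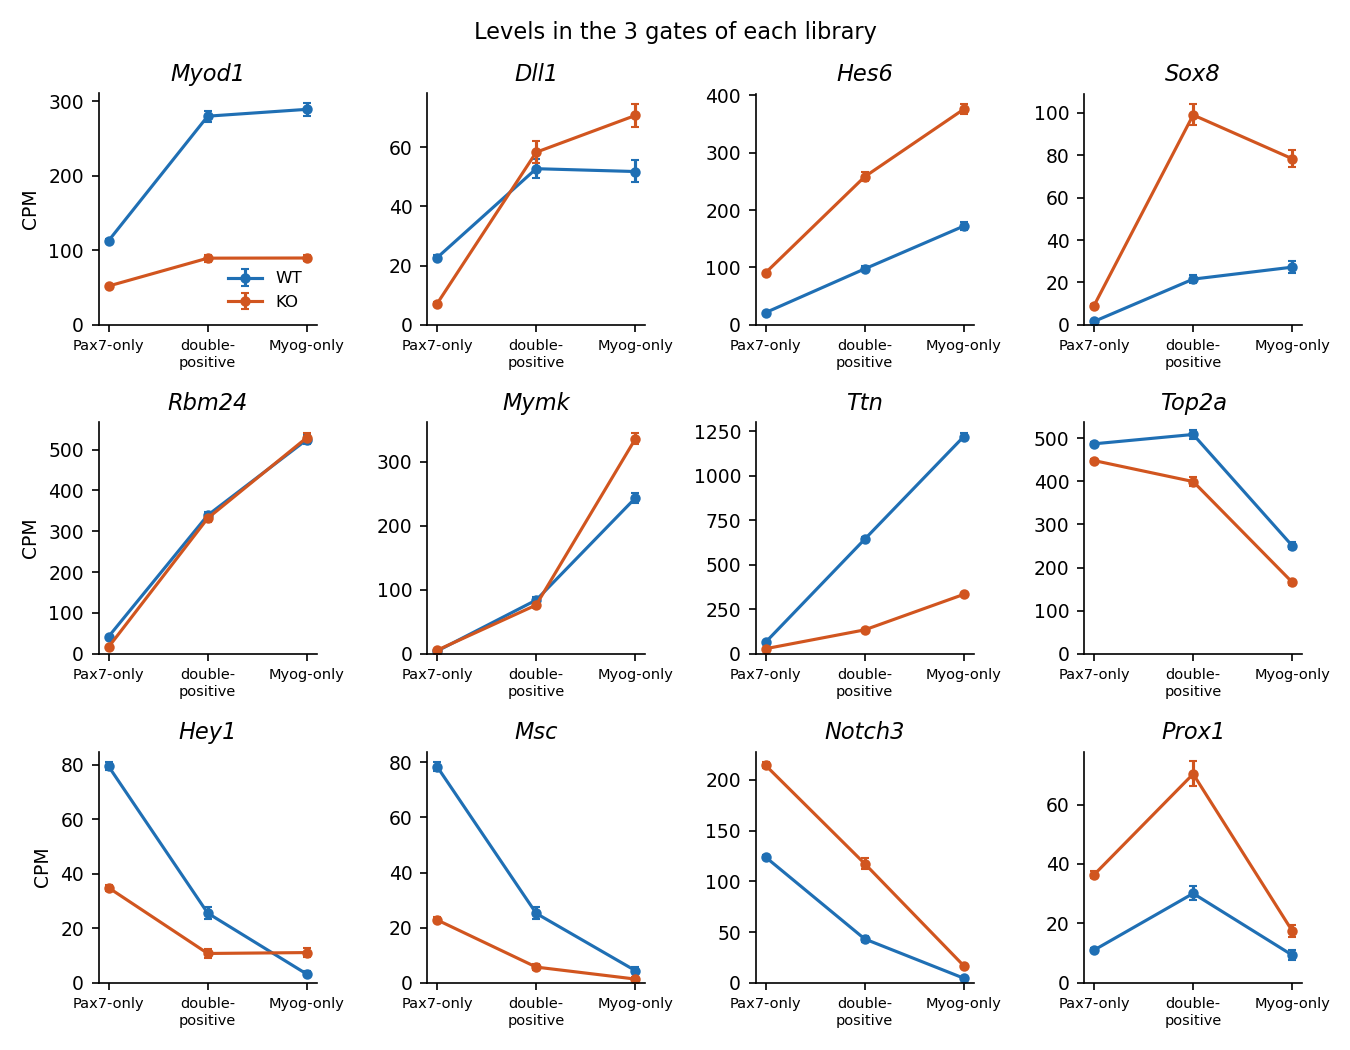
CPM of 12 genes in Pax7-only, double-positive and Myog-only cells of the WT and KO libraries, with 95% counting intervals. Myod1 and Dll1 stand near the Myog-only level, Mymk and Ttn stay below it, Hey1 and Msc are already low, Top2a is near the Pax7-only level at the depths shown and Prox1 is highest in the middle gate.

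Among the myogenic regulators, Myod1 measured 113, 280 and 289 CPM in WT and 52.0, 89.4 and 89.6 in KO, so the double-positive level was within counting error of the Myog-only one in both (ratios 0.968 and 0.998). Myod1 reads persist in the KO library; these 3′ reads need not cover the altered part of the gene and do not check the genotype. Myf5, the early determination factor, read 23.8, 9.56 and 1.38 CPM in WT and 91.6, 38.4 and 6.10 in KO. Myf6, the factor used to make the clones, was at 0.873 CPM in WT and 5.13 in KO double-positive cells. Of 20 regulators tested Myog, Mef2a, Mef2c and Sox8 were higher than in Pax7-only cells, and Myf5, Eya1 and Msc were among those lower; Myog's call was fixed by the gates. Mef2a, a partner of myogenin, went from 98.9 to 430 CPM in WT and from 203 to 740 in KO. Mef2c, its relative, read 46.9, 263 and 602 CPM in WT and 16.2, 38.3 and 154 in KO. Its KO excess of 2.36-fold over Pax7-only cells was 1.58-fold without the highest scores and 1.05-fold among shallower cells (17.6 against 16.8 CPM), so its call was lost under both. The Myf5 call was lost among shallower cells as well (KO log2 -0.88). Sox8, a Sox factor found in satellite cells, read 1.56, 21.5 and 27.2 CPM in WT and 9.03, 99.0 and 78.3 in KO. Msc (musculin), a repressor that competes with MyoD for E-boxes, read 78.4, 25.2 and 4.41 CPM in WT and 22.8, 5.69 and 1.34 in KO, and 4 of 12 inhibitory helix-loop-helix genes were called lower (Msc, Hes1, Hey1 and Bhlhe40) with none higher. Id2, which sequesters E proteins, was not among them: it stayed at 150 CPM in WT and 95.9 in KO against 153 and 90.7 in Pax7-only cells, with 69.0 and 36.6 in Myog-only cells. The inhibitory list as a whole summed to 1503, 1815 and 1688 CPM in WT and 1755, 1696 and 1253 in KO, so its sum did not fall in WT double-positive cells. Hes1 and Hey1 were also counted among the Notch targets above.

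Of 18 genes of cell cycle exit, 4 were called higher than in Pax7-only cells (Btg1, Gadd45b, Gadd45g and Rb1) and none lower, and the list's median log2 difference was -0.035 in WT and 0.24 in KO, against -0.081 and -0.049 over all genes. Among shallower cells Btg1 was under 2-fold in KO (log2 0.81). Rb1, the retinoblastoma protein that holds E2F in check, went from 28.2 to 172 CPM in WT (6.11-fold, 5.83 to 6.40) and from 31.3 to 145 in KO (4.63-fold, 4.39 to 4.89). Gadd45g went from 13.8 to 67.9 CPM in WT and from 31.1 to 110 in KO. Cdkn1c, the cyclin-dependent kinase inhibitor p57, measured 426, 1473 and 2832 CPM in WT and 2729, 4806 and 8387 in KO. None of 52 G2/M genes was called against Pax7-only cells. Of 41 S-phase genes only E2f8, an atypical E2F repressor, was higher, a call lost among shallower cells (WT log2 0.67). With 2.32% of all genes called higher and 1.08% lower, counts this small do not set lists of this size apart. The median log2 difference was -0.14 in WT and -0.33 in KO for the G2/M genes. For the S-phase genes it was -0.35 and -0.25, against -0.081 and -0.049 over all genes. Against Myog-only cells 23 of the 52 G2/M genes and 3 of 40 S-phase genes were higher and none lower. Top2a, a topoisomerase of dividing cells, read 487, 509 and 250 CPM in WT and 448, 400 and 166 in KO, and Mki67 182, 162 and 65.2 in WT and 234, 155 and 51.2 in KO. The G2/M list as a whole summed to 7951, 7473 and 4435 CPM in WT and 6770, 5562 and 2791 in KO, and the S-phase list to 3063, 2501 and 1281 in WT and 2695, 2344 and 1465 in KO.

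These division genes moved with depth. Among the shallower cells of all gates, 3 of 44 G2/M genes stayed at 2-fold or more over Myog-only cells in both libraries. Of the G2/M calls lost there, all but Cenpf, Ckap2 and Cdca3 kept 2-fold in WT and fell under it in KO. Top2a, for example, was at log2 1.28 in WT and 0.45 in KO. Its level in shallower double-positive cells was 269 CPM in WT and 97.6 in KO, against 308 and 197 in shallower Pax7-only cells. The G2/M sum of shallower double-positive cells was 4679 CPM in WT (Pax7-only 5774, Myog-only 3084) and 2654 in KO (3939 and 2169). With TMM scaling 13 of 52 were called, and with the highest Scrublet scores left out 30 of 52. Phases called from cells thinned to 5000 UMIs placed 62.7% of WT double-positive cells in G2/M, 13.4% in S and 23.8% in G1. In KO the shares were 40.1%, 22.5% and 37.5%. Pax7-only cells had 12.5% in G1 in WT and 25.4% in KO, and Myog-only cells 64.5% and 71.8%. Phase calls also read free RNA, whose part was not tested.

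Both fusion proteins of muscle had transcripts well under the Myog-only level. Mymk (myomaker), the membrane protein needed for myoblast fusion, measured 4.20, 84.0 and 244 CPM in WT and 5.50, 76.3 and 336 in KO, and Mymx (myomixer), its partner, 2.71, 64.0 and 189 in WT and 2.53, 58.9 and 156 in KO. Jam3, Adam12 and Vash2 were also called higher, and Cd9, a tetraspanin that restrains fusion, was lower, so 5 of 17 fusion and adhesion genes were higher and 1 lower. Among the shallower cells Mymk stood at 41.0 CPM in WT and 33.4 in KO, still 10.5- and 5.61-fold over Pax7-only cells, whereas Adam12 and Vash2 were under 2-fold in KO (log2 0.50 and 0.52).

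Of 26 sarcomere genes outside the selection, 18 were higher than in Pax7-only cells and none lower, and against Myog-only cells 13 of 33 were lower. Ttn (titin) read 64.6, 644 and 1222 CPM in WT and 28.3, 134 and 334 in KO, and Tnnt2, the cardiac-type troponin T made early in muscle, 17.4, 159 and 444 in WT and 21.4, 85.5 and 318 in KO. The count of higher genes was 13 of 24 without the highest scores and 3 of 22 among shallower cells. Over all genes 171 and 125 were called higher under these limits, against 176. Among shallower cells Ttn was at 295 CPM in WT and 59.5 in KO (1.86-fold over Pax7-only cells). Ttn, Tnnt2, Neb, Myh8, Myh1 and Klhl41 kept 2-fold there in WT (log2 1.74 to 2.62) and fell under it in KO (Tnnt2 at log2 0.89). Mybph and Actn2 were under 2-fold in both libraries, and Mybpc1 in WT only. Calcium-handling genes gave 4 of 12 higher (Ryr1, Atp2a1, Trdn and Srl, the last at log2 0.72 in KO among shallower cells), and genes of the nerve-muscle junction 3 of 9, among them the acetylcholine receptor subunits Chrna1 (31.0 to 139 CPM in WT, 8.59 to 26.5 in KO) and Chrng. Rbm24, a muscle splicing factor, went from 42.0 to 339 CPM in WT and from 16.5 to 332 in KO.

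By fold, the genes furthest above Pax7-only cells were led by Kcnk13, a potassium channel, at 0.430 against 24.0 CPM in WT (55.7-fold, 42.4 to 74.5) and 0.291 against 23.9 in KO (82.0-fold, 56.2 to 124). Casz1, a zinc-finger factor, followed with 25.6- and 29.8-fold, and Zbtb18, a zinc-finger repressor needed in muscle differentiation, reached 11.4- and 14.5-fold. Sntb1, a syntrophin of the dystrophin complex, was 14.99- and 28.9-fold higher, and Dok7, needed to build the nerve-muscle junction, 13.3- and 23.3-fold. The genes furthest below were Tmem100, at 62.6 against 16.3 CPM in WT and 26.9 against 5.32 in KO, and the polarity gene Lin7a, at 108 against 29.1 and 51.1 against 7.38. Egfr, the growth factor receptor, Slit2, a secreted guidance cue, Fzd4, a Wnt receptor, and the matrix genes Vcan and Svep1 were in this group as well. The immediate early genes Fos and Ier2 were also lower, as 2 of 8 tested; Ier2 was at log2 -0.83 in KO among shallower cells.

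Few genes stood clearly beyond both neighbouring gates. At 1.5-fold or more beyond each gate in both libraries, 2 of 7222 genes were above both (0.0277%) and 0 below both (0%); at any size 419 were above and 211 below. Prox1, the Prospero-type homeobox factor, measured 11.0, 30.1 and 9.29 CPM in Pax7-only, double-positive and Myog-only cells of WT and 36.4, 70.3 and 17.4 in KO. That is 2.74-fold (2.49 to 3.01) and 1.93-fold (1.81 to 2.07) over Pax7-only cells, and 3.24-fold and 4.04-fold over Myog-only cells. Necab1, a neuronal calcium-binding protein, read 18.3, 36.0 and 23.3 CPM in WT and 20.4, 35.6 and 18.1 in KO. Its WT excess over Myog-only cells, 1.54-fold, was close to the limit. With TMM scaling, a stricter gate or thinned counts Necab1 was no longer above both gates, whereas Prox1 was. Among the shallower cells Prox1 was higher still, at 41.9 CPM in WT and 104 in KO against 10.0 and 44.0 in Pax7-only cells, and 5 further genes passed, among them Ackr3, a scavenging chemokine receptor, and Cd200. A UMI of Prox1 was found in 16.3% of WT and 26.7% of KO double-positive cells thinned to 5000 UMIs, against 5.49% and 15.8% of Pax7-only, 5.95% and 7.71% of Myog-only and 2.80% of reference cells.

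How far each gene had gone was put on a common scale, its position, from 0 at the Pax7-only level to 1 at the Myog-only level. It was computed for genes with 2-fold or larger differences between those 2 gates in both libraries and at least 20 CPM in the higher. Over the 284 genes higher in Myog-only cells the median position was 0.46 in WT and 0.40 in KO, and over the 483 lower ones 0.48 and 0.47. The middle 90% of genes ran from 0.25 to 0.72 in WT and from 0.15 to 0.87 in KO for the first set, against a median counting SD of 0.027 in each. The 95% counting interval missed the set's median for 66.2% of the genes of the first set in WT and 81.0% in KO. Across genes, which are not independent replicates, the positions in the 2 libraries correlated with Pearson's r of 0.55 in the first set and 0.57 in the second. Among the shallower cells, with 61.6% or more of the first set again off the median, r was 0.22 and 0.11 and the median counting SD of the first set was 0.055 in WT and 0.077 in KO.

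**Figure D3:**
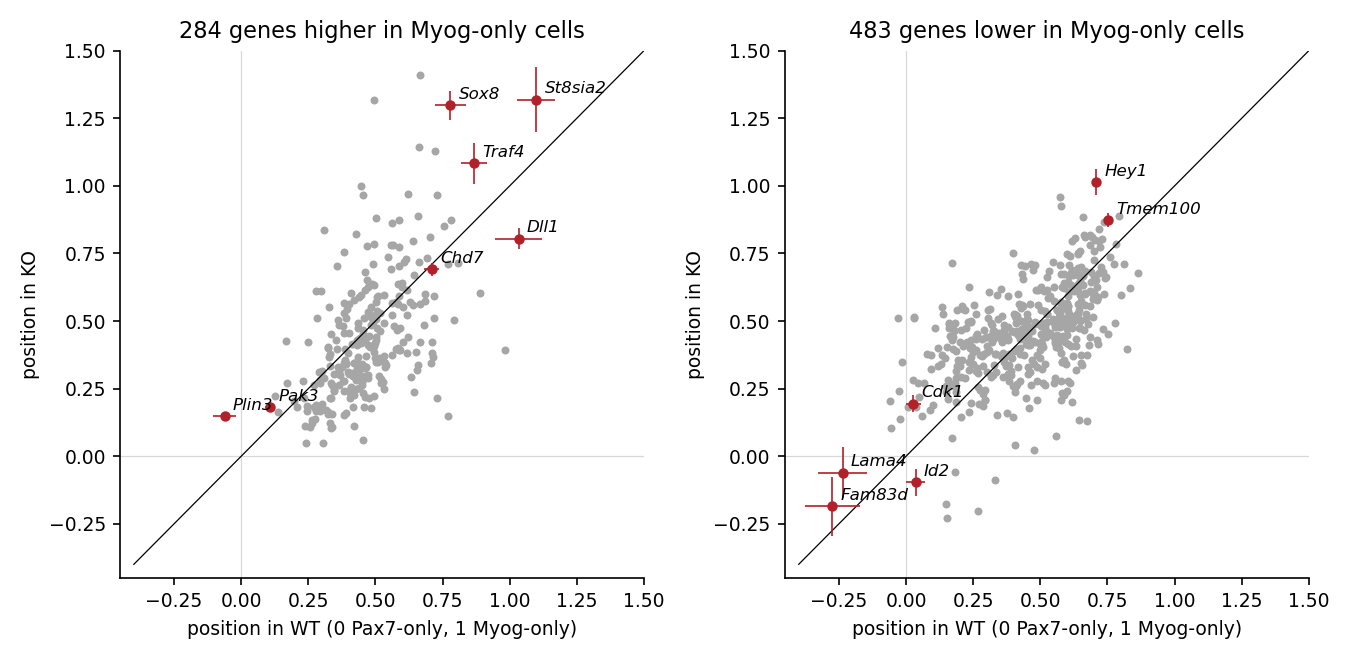
Position of each gene between Pax7-only (0) and Myog-only (1) cells in WT (x) and KO (y), for 284 genes higher (left) and 483 lower (right) in Myog-only cells; red points carry the counting SD. Dll1, Sox8, Traf4 and St8sia2 lie near or past 1 and Pak3 and Plin3 near 0; among the lower genes Hey1 and Tmem100 lie high and Id2, Cdk1, Lama4 and Fam83d near or under 0.

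At 0.65 or more in both libraries stood 17 of the 284 genes higher in Myog-only cells. They included Dll1 (1.03 in WT, 0.80 in KO), Sox8 (0.78 and 1.30), St8sia2, a polysialic acid synthase (1.10 and 1.32), the adaptor Traf4 (0.87 and 1.08), the chromatin remodeller Chd7 (0.71 and 0.69), the corepressor Tle3 (0.70 and 0.81) and E2f8 (0.73 and 0.97). At 0.25 or less stood 11, among them the kinase gene Pak3 (0.11 and 0.18), the neuregulin receptor Erbb4 (0.14 and 0.16), the brain-type creatine kinase Ckb (0.23 and 0.21) and Tmem178b (0.21 and 0.18). Mymk was at 0.33 and 0.21 and Mef2c at 0.39 and 0.16, while Myog itself, on which the cells were chosen, was at 0.43 and 0.42. Of the 483 genes lower in Myog-only cells 35 had a position of 0.65 or more, among them Hey1 (0.71 and 1.01), Msc (0.72 and 0.80), Tmem100 (0.75 and 0.87), Egfr (0.68 and 0.82), Lrig1, a brake on growth factor receptors (0.79 and 0.89), and Hmga2, a chromatin protein of proliferating progenitors (0.78 and 0.78). At 0.25 or less stood 25, among them the mitotic kinases Aurka (-0.02 and 0.14), Plk1 (0.05 and 0.22) and Cdk1 (0.03 and 0.19), and Id2 (0.04 and -0.10). The 30 G2/M genes among the 483 had a median position of 0.18 in WT and 0.34 in KO. Without the highest-scoring cells Dll1 was at 1.28 and 0.87 and Mymk at 0.21 and 0.18; in the shallower cells of all gates Dll1 was at 1.08 and 0.91, Mymk at 0.16 and 0.12, Hey1 at 0.81 and 1.12, and Id2 at -0.02 and -0.27.

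Within the double-positive cells the same genes differed in how their levels changed across classes of the Myog level, on which the cells were chosen. Cells were split at 4 and 8 Myog UMIs per 10000, giving 194, 189 and 42 cells in WT and 123, 109 and 75 in KO. Below the gate were Pax7 cells with 2 or more Myog UMIs but under 2 per 10000 (768 in WT, 772 in KO). They had 37.5 CPM of Dll1 in WT and 15.4 in KO. Their median depth was 40067.5 UMIs in WT and 44598 in KO, against 35689 and 38605.5 in Pax7-only cells. High Scrublet scores made up 8.33% and 7.77% of them, against 2.01% and 3.37% in Pax7-only cells. Dll1 then read 51.5, 54.5 and 49.8 CPM over the 3 classes in WT, which overlap within counting error, and 45.7, 60.8 and 74.8 in KO. Mymk read 46.2, 98.1 and 192 CPM in WT and 29.1, 54.5 and 180 in KO, so the classes did not overlap. Samd4, an RNA-binding regulator of translation, read 34.1, 91.1 and 210 CPM in WT and 22.6, 53.7 and 111 in KO. Prox1 read 32.1, 31.2 and 15.4 CPM in WT and 80.2, 61.3 and 66.5 in KO. The S-phase list went from 2734 to 2450 to 1667 CPM in WT and from 2643 to 2321 to 1904 in KO, while Top2a was at 493, 518 and 539 in WT and 425, 354 and 419 in KO, where the second class lay below the other two beyond counting error. The share of high Scrublet scores over the classes was 22.2, 32.3 and 31.0% in WT and 15.4, 10.1 and 14.7% in KO. Median depth over the classes was 40395, 45341 and 46123.5 UMIs in WT and 46664, 43467 and 52799 in KO. The part of depth in these levels was not tested.

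**Figure D4:**
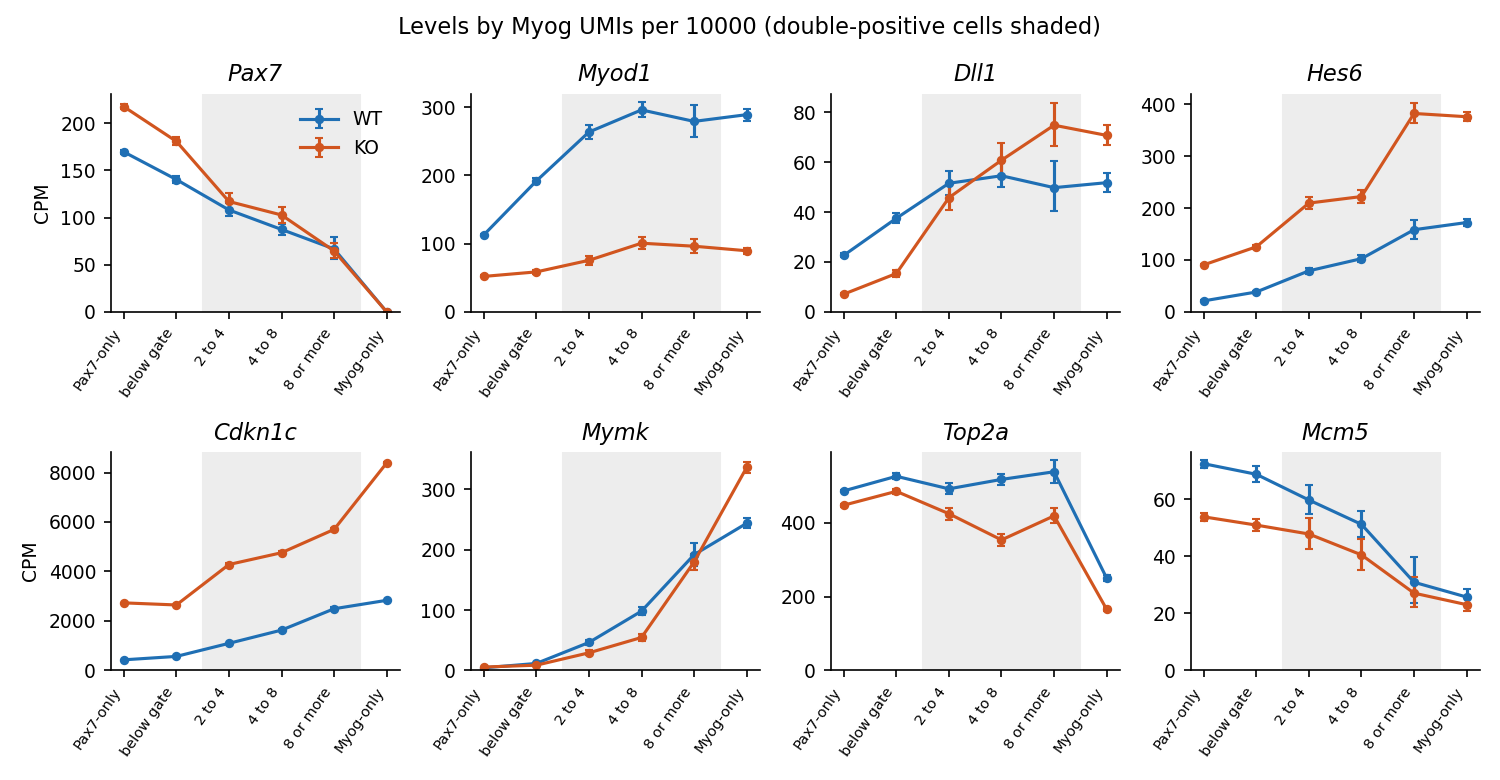
CPM of 8 genes in Pax7-only cells, in Pax7 cells with some Myog below the gate, in 3 classes of double-positive cells by Myog UMIs per 10000 (shaded) and in Myog-only cells, with 95% counting intervals; blue WT, orange KO. Dll1 levels off at the start of the shaded range in WT and Mymk climbs throughout; Top2a is at 539 in WT and 419 in KO in the last shaded class and at 250 and 166 in Myog-only cells.

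Between the 2 clones, double-positive cells differed widely. In KO 1091 of 8488 genes were at least 2-fold higher than in WT (12.9%) and 341 lower (4.02%), with a median log2 difference over all genes of 0.15. TMM scaling moved that median by -0.25, to -0.10, and the counts to 751 and 579, so the split between higher and lower genes depends on the scaling. Pax7 was at 94.6 CPM in WT and 98.7 in KO and Myog at 481 and 623. The same lower limits on both genes held in each library, but they do not fix these levels. Dll1 was at 52.7 and 58.3 CPM, and Hes6 was 2.65-fold higher in KO (2.51 to 2.80). Highest in KO by ratio were Tafa5, with 1 UMI in WT against 77.0 CPM in KO (1587-fold, counting interval 284 to 62738), and S100a4, a fibroblast-associated calcium-binding protein, at 0.970 against 319 CPM. The lectin Lgals3 stood at 1.80 against 562 CPM, the caveolae protein Cav1 at 1.99 against 167 and cyclin D2 (Ccnd2) at 3.83 against 270. Lowest in KO were the homeobox gene Alx1, with 62.4 CPM in WT and no UMI in KO (at least 333-fold lower, taking 3 UMIs over the KO gate as the floor), the imprinted gene Nnat, at 587 against 27.0 CPM, and the potassium channel Kcnc1, at 57.6 against 1.81. These differences were not limited to this stage: S100a4 was at 2.83 and 426 CPM in Pax7-only cells, and Alx1 at 113 and 0.0101.

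Of 34 sarcomere genes outside the selection 18 were lower and 3 higher in KO than in WT double-positive cells, with Ttn 4.79-fold lower (4.58 to 5.02) and Mef2c 6.86-fold lower (6.31 to 7.47). With TMM scaling 21 were lower and 1 higher of 35, without the highest-scoring cells 11 and 3 of 32, and within shallower cells 9 and 4 of 29. Within shallower cells 19 of 50 G2/M genes were also lower in KO and 1 higher (1 lower of 52 among all cells). Over all genes, shallower cells gave 540 lower and 1289 higher, against 341 and 1091 among all cells. The shares of 4.02% and 12.9% therefore do not apply there. Tnni1 and Ldb3 changed sign without the highest-scoring cells. Of 23 myogenic regulators 7 were lower and 4 higher, with a median log2 difference of 0.23 over the list; Myod1 was 3.13-fold lower and Myf5 4.02-fold and Sox8 4.60-fold higher. Immediate early genes gave 8 of 12 higher and none lower in KO, including Fos at 6.84 against 46.0 CPM, cell cycle exit genes 7 of 19 higher and none lower, and the 4 smooth muscle markers tested were all lower. Of 4 fibroblast markers tested all were higher, including Col3a1 at 48.6 against 280 CPM.

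**Figure D5:**
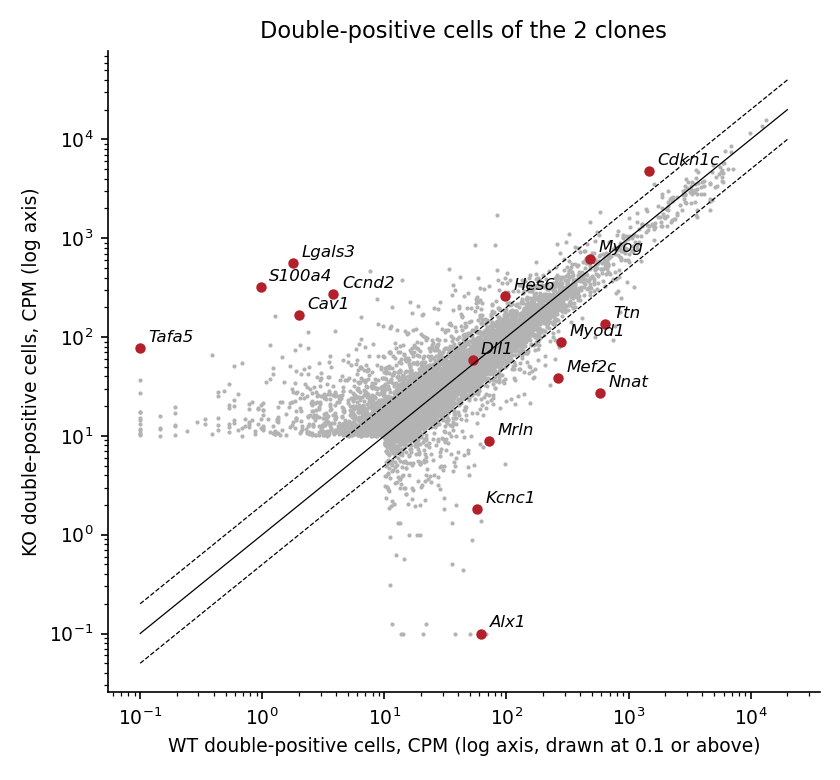
CPM of genes in WT (x) and KO (y) double-positive cells, both axes logarithmic, for genes with at least 10 CPM in 1 of them; solid line, equal levels; dashed lines, 2-fold. Dll1 and Myog lie near the solid line, Tafa5, S100a4, Lgals3, Cav1 and Ccnd2 far above it, and Alx1, Kcnc1, Nnat, Mrln, Mef2c and Ttn below it.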

How the data were processed

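Per the labels' protocols, the libraries were made with a 10x Chromium 3′ v3.1 kit; per the submitters' processing notes, Cell Ranger and build GRCm39 were used. The deposited files hold raw UMI counts per gene and barcode, as whole numbers, for 25906 genes in 2 libraries; no cell annotation was used. The double-positive gate, its comparison gates and the 33 gene lists were chosen with earlier results of these data known. Counts were summed per gate and library and scaled to CPM. Intervals are exact Poisson, conditional binomial or Clopper-Pearson at 95%. Genes were named by a fixed rule: 7 regulators and markers always, the highest and lowest ratios of each contrast, genes above both gates, up to 6 members per list and textbook members of a pathway. The position scale and the genes listed by it, Ackr3, Cd200 and Samd4's Myog classes were added after the values were seen. No test across genes was run, since each genotype has 1 library. The call rule was run on simulated sums with planted changes and counting error only, which hold no depth differences between gates and no doublets. Scrublet scores and phases came from scanpy 1.11.5, TMM factors from edgeR 4.0.16 in R 4.3.3. The limit on sarcomere transcripts was added here to both comparison gates. Double-positive cells held 20615011 UMIs in WT and 15989521 in KO.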

Additional observations from a re-analysis of the deposited data

Results flagged for a closer look

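In 4 genes the double-positive cells of the 2 clones lay on opposite sides of their Pax7-only cells, at least 2-fold each way. Barx2, a homeobox gene expressed in muscle progenitors, was higher in WT (log2 1.64, from 15.7 to 48.8 CPM) and lower in KO (-2.06, from 20.1 to 4.82), and its Myog-only levels of 60.2 and 1.46 CPM lay further in the same directions. Deptor, an inhibitor of mTOR, was at log2 1.59 in WT (4.55 to 13.7 CPM) and -1.53 in KO (20.6 to 7.13). Clip2, a microtubule-binding protein, was at 1.01 in WT (6.09 to 12.3 CPM) and -1.09 in KO (11.4 to 5.38). Slc1a3, a glutamate transporter, went the other way, with -1.18 in WT (29.5 to 13.0 CPM) and 1.06 in KO (5.85 to 12.2). With 1 library of each genotype the difference between the clones was not tested. No gene was called in opposite directions against Myog-only cells.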

How the results depend on the processing

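No paired analysis was possible because each genotype has 1 library. Of 154 shares of cells and counts of genes under the alternatives, single genes aside, 107 kept their size and 47 moved. Shares and counts have no direction, so none of them could be labelled as reversed. The share of double-positive cells in WT was 5.201% with no filter on cells, 4.91% on thinned counts (with the Pax7 limit at 1 UMI), 0.888% with a stricter gate and 4.46% without the highest Scrublet scores; in KO it was 4.07% with no filter and 1.28% with the stricter gate. Genes higher than in Pax7-only cells numbered 100 on thinned counts and 80 at 50 CPM or more, and genes lower 125 without the highest scores, 184 with the UMI limit on double-positive cells, 191 with both, 33 on thinned counts and 17 at 50 CPM. Genes higher than in Myog-only cells numbered 156 with the UMI limit (also with both), 139 with the limit in every gate, 930 with no sarcomere ceiling on the comparison gates, 42 on thinned counts and 62 at 50 CPM, and genes lower 44 with the stricter gate, 173 with the UMI limit (also with both), 497 with no ceiling and 37 at 50 CPM. Genes above both gates numbered 6 with the stricter gate, without the highest scores or with the UMI limit, 7 with both or with the limit in every gate, 28 with no ceiling, 1 on thinned counts, 4 as a mean over cells or at 5 CPM, and 0 at 50 CPM or at 2-fold; below both there were 4 with the UMI limit or no ceiling, 3 with both and 1 with the limit in every gate. Genes higher in KO numbered 343 at 50 CPM, and lower 540 with the UMI limit (on double-positive cells or every gate), 525 with both, 579 with TMM and 124 at 50 CPM. Without thinning, G1 held 18.1% of WT and S 17.9% of KO double-positive cells. The limit in every gate, both limits together and the minimum of 10000 UMIs were chosen after seeing the data.

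Single genes changed direction under the depth limits, and the cause was not tested. In KO against Pax7-only cells Frmd4b was at log2 -0.82 with the UMI limit, -3.56 with both and -1.20 with the limit in every gate. Against Myog-only cells in KO, the UMI limit gave Exo1 -1.25, Cdk1 -0.58, Nusap1 -0.50, Tpx2 -0.034, Top2a -0.77, Ndc80 -0.73, Cenpf -0.29 (WT -0.35), Ckap2l -0.024, Aurkb -0.058, Kif11 -0.84, Kif20b -0.17, Ttk -0.85, Cdca2 -1.34, Kif23 -0.090, Aurka -1.28 and Anln -0.11. Both limits gave Exo1 -1.14, Cdk1 -0.47, Nusap1 -0.32, Top2a -0.66, Ndc80 -0.55, Cenpf -0.10 (WT -0.39), Kif11 -0.68, Kif20b -0.042, Ttk -0.73, Cdca2 -1.29 and Aurka -1.09. The limit in every gate gave Exo1 -0.66, Ttk -0.10, Aurka -0.50 and Kirrel3 -0.015. KO over WT, Tnni1 was at 0.016 without the highest scores and 0.036 with both, Ldb3 at 0.35 without the highest scores and Lmod3 at 0.54 with both.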
